A study of Mus musculus with 36 samples.

Results

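Mitochondrially encoded transcripts were taken as the genes of the count table whose symbol starts with mt-, and 13 of the 32285 mouse genes met this rule. They are the 13 mRNAs among the 37 genes that the GENCODE vM21 annotation of GRCm38 places on the mitochondrial chromosome, and the 2 rRNAs and 22 tRNAs were not analysed here. The series is concerned with gene expression driven by MRTFA and SRF and with cytoplasmic calcium and potassium. RNA was sequenced from 36 libraries of 2 mouse lines labelled as breast cancer cells, AT-3, derived from a tumour of the MMTV-PyMT mouse model, and E0771, a mammary adenocarcinoma line, with 3 libraries in each of 12 groups. Per the labels' design text, cells sat in 6-well dishes for 24 h and were then treated for 24 h. The 6 treatments were the solvent DMSO, NS11021 at 10 µM, BMS204352 at 10 µM, KCl at 40 mM, and KCl together with either compound at those doses. Both compounds open BK potassium channels, and BMS204352 also opens KCNQ channels. The labels name no separate cultures for the replicates, so p-values measure the spread between these libraries, which may be technical.

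Mitochondrial DNA is transcribed from both strands into long precursors by the polymerase Polrmt with its factors Tfam and Tfb2m. The precursors are cut at the tRNAs that lie between most of the mRNAs. Most of the mRNAs are then stabilised and polyadenylated, and genes that share a precursor can still differ in mRNA level. All 13 proteins are subunits of oxidative phosphorylation. They sit in complex I (NADH dehydrogenase), complex III (cytochrome bc1), complex IV (cytochrome c oxidase) and complex V (ATP synthase), beside many subunits made from nuclear genes.

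Library totals ran from 38.5 to 52.6 M counts in AT-3 and from 31.2 to 47.9 M in E0771. The 13 mRNAs gave 210114 to 373766 counts per AT-3 library and 191558 to 434710 per E0771 library. Some replicate 3 libraries stood apart over all genes. On the first principal component of AT-3 (35.9% of variance) the BMS204352 libraries of replicates 1, 2 and 3 lay at 2.6, 5.7 and 30.5, and those of KCl+BMS204352 at 2.8, 6.0 and 18.1. On the third component of E0771 (5.9%) the BMS204352 libraries lay at 1.0, -2.0 and 12.7, and those of KCl+BMS204352 at 0.8, 2.1 and 6.5. The main results on BMS204352 are therefore also given without these 4 libraries. Of 9 epithelial markers, AT-3 expressed Krt14, a basal keratin, at 1449 CPM (counts per M of library total) in DMSO and the adhesion gene Cdh1 at 449.9. There Epcam, Krt5 and Esrp1 were at 122, 153 and 209.7 CPM and Krt18 at 21.4. Krt8, Krt19 and Cldn4 were near 0 in AT-3, at 0.349, 0.408 and 0.028 CPM. In E0771 the keratin Krt8 was at 202 CPM, while Epcam was at 0.075 and Cdh1 at 1.41, so most epithelial markers were near 0 in that line. Summed leukocyte markers stayed between 2.42 and 22.5 CPM in AT-3 and between 3.08 and 15.6 in E0771, with Ptprc and Cd3e at 0 in all AT-3 libraries. Summed endothelial markers reached at most 4.28 and 4.34 CPM, with Cldn5 and Emcn at 0 in all E0771 libraries. Summed fibroblast markers ran from 22.8 to 50.6 CPM in AT-3 and from 177 to 260.2 in E0771, where Dcn, Lum and Thy1 were at 0. Summed brown fat and muscle markers ran from 14.7 to 39.0 CPM in AT-3 and from 0.829 to 2.35 in E0771.

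How many of a gene's reads can be placed on the mitochondrial chromosome depends on nuclear copies of mitochondrial DNA. The annotation holds 7 pseudogenes in a row at chr1:24611535-24616197 on the minus strand of GRCm38, a stretch of 4663 bases. They keep the order of the mitochondrial genes from the end of mt-Co1 through mt-Co2, mt-Atp6, mt-Co3, mt-Nd3 and mt-Nd4l to the start of mt-Nd4. None of these 7 copies is among the genes analysed here. The sequences below, from GENCODE vM21, are shown because the match between a gene and its copy sets which reads can be told apart. Each is given 5′ to 3′ for 60 bases of the transcript, and capitals mark the bases at which gene and copy differ. The copies of mt-Co2 and mt-Nd3 start with the gene, and the copy of mt-Co1 starts at base 1054 of the gene. The windows of mt-Cytb and mt-Nd5 begin at bases 301 and 901, and their copies lie on chromosome 4.
mt-Co2: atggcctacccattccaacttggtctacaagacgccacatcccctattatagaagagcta
Gm28661: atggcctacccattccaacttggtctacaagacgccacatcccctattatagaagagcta
mt-Nd3: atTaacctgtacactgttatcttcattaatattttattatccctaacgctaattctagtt
Gm28438: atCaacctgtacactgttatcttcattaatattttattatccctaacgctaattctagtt
mt-Co1: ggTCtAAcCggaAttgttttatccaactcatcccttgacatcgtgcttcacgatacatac
Gm29216: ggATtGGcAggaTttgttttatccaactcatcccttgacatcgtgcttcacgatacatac
mt-Cytb: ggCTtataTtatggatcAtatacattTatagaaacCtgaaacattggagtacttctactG
Gm11410: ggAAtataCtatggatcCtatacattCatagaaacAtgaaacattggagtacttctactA
mt-Nd5: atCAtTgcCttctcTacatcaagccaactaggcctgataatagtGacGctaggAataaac
Gm11407: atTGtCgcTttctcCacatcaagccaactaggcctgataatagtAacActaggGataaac
The mt-Co2 copy matched the gene at all 681 aligned bases, and so did those of mt-Atp6 over 678, mt-Co3 over 783, mt-Nd4l over 294 and mt-Nd4 over 876. Counted from 1 at the 5′ end of the gene, the mt-Nd3 copy differed at 1 of 345 bases (T3C). The mt-Co1 copy differed at 6 of 492 bases, from T1056A to A1066T. Within the 60-base windows the chromosome 4 copies differed at 7 bases from mt-Cytb and at 8 from mt-Nd5.

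The genes were sorted by the share of their 75-base windows found letter for letter in an annotated nuclear transcript. The share was between 97.8% and 99.9% for mt-Co2, mt-Atp6, mt-Co3, mt-Nd3 and mt-Nd4l. It was 61.5% for mt-Nd4, 39.8% for mt-Co1, 5.7% for mt-Nd2 and 1.7% for mt-Nd5, and 0 for mt-Nd1, mt-Atp8, mt-Nd6 and mt-Cytb. Levels per length in DMSO differed along the same lines. The 5 genes with nearly every window shared were at 22.9 to 86.2 CPM per kb in AT-3 (median 69.4) and at 30.6 to 96.1 in E0771 (median 62.3). The 4 genes with some windows shared were at 197 to 1216 CPM per kb in AT-3 and 289.8 to 1449 in E0771. Of the 4 with no window in an annotated nuclear transcript, mt-Nd6, mt-Cytb and mt-Nd1 were at 176 to 1201 CPM per kb in AT-3. There mt-Atp8 was at 7.52. The treatment of reads with more than 1 match is not given in the sources used here, so for the 5 genes a low level cannot be told apart from reads lost or shared with the copies. mt-Atp8 lies between mt-Co2 and mt-Atp6, whose copies keep the spacing of the genes on chromosome 1. The bases between these annotated copies were not compared, so the same limit may hold for mt-Atp8. Together the 5 genes with nearly every window shared held 2.70% to 4.11% of the mitochondrial counts of an AT-3 library and 1.87% to 2.99% of an E0771 library.

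**Figure D1:**
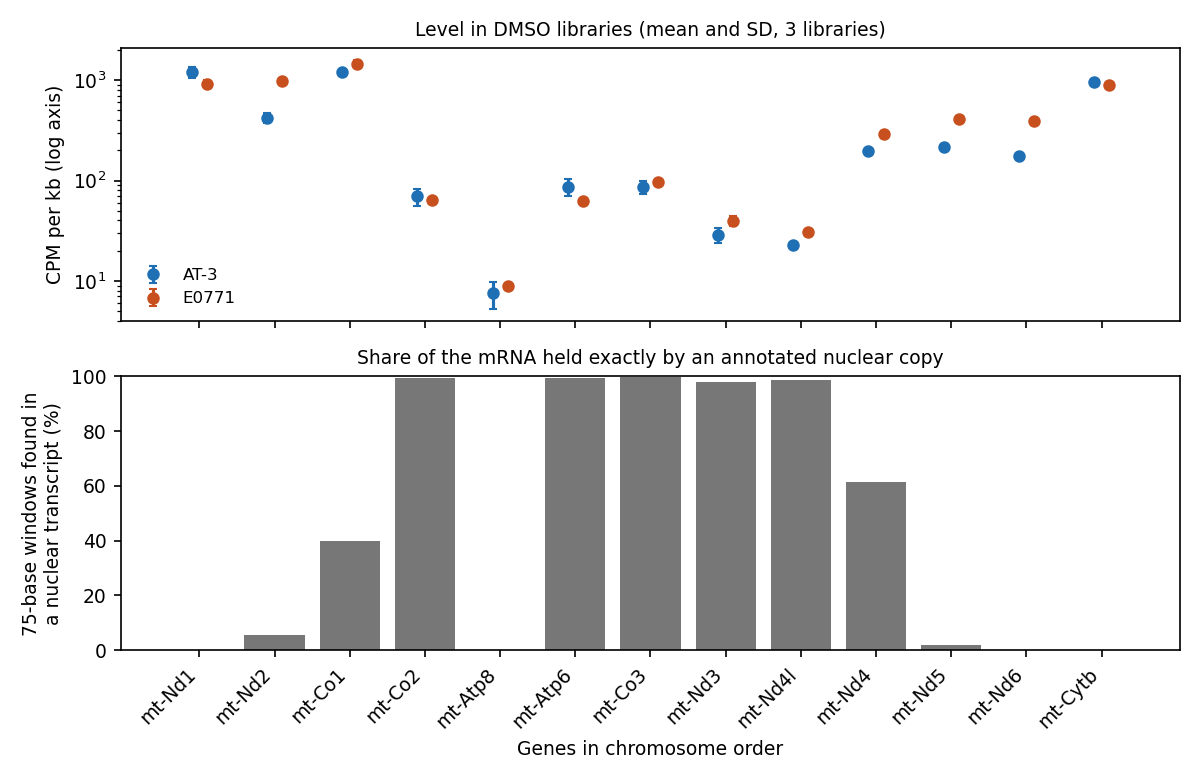
Top, level of each mitochondrial mRNA in the DMSO libraries in CPM per kb on a log axis (mean and SD of 3 libraries, AT-3 blue, E0771 orange); bottom, percent of the 75-base windows of each mRNA found exactly in an annotated nuclear transcript. The genes are in chromosome order. The 5 genes with 97.8% to 99.9% of windows shared lie below 100 CPM per kb in both lines. So does mt-Atp8, which has no window in an annotated nuclear transcript. Bases between the annotated copies were not compared.

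By level per length in DMSO, mt-Co1 (chrM:5328-6872, plus strand, 1545 bases), which encodes the catalytic subunit of complex IV, stood highest, at 1216 ± 29.0 CPM per kb (SD, n = 3) in AT-3 and 1449 ± 130.2 in E0771. In AT-3 mt-Nd1 (chrM:2751-3707), a membrane subunit of complex I, was at 1201 ± 157 CPM per kb, which did not differ from mt-Co1 beyond its spread. mt-Cytb (chrM:14145-15288), the cytochrome b of complex III, followed at 949 ± 24.9 CPM per kb. In E0771 mt-Nd2 (984 ± 57.2 CPM per kb), mt-Nd1 (925 ± 68.1) and mt-Cytb (903 ± 57.5) came next and lay within each other's spread, while mt-Nd2 in AT-3 was at 422 ± 47.8. By counts, mt-Co1, mt-Nd1 and mt-Cytb took the most in AT-3. These 3 mRNAs made up 73.0% to 75.3% of the mitochondrial counts in AT-3 and 60.7% to 64.0% in E0771. mt-Nd6 (chrM:13552-14070) is the member read from the other strand, and its last 14 bases overlap the end of mt-Nd5 (chrM:11742-13565). Whether counting used the strand is not given in the sources used here, so reads of mt-Nd6 and of any transcript opposite to it cannot be told apart. mt-Atp8 (chrM:7766-7969) shares its last 43 bases with mt-Atp6 and had the fewest counts, 23 to 365 per library. It was also the most variable within groups: in E0771 with NS11021 it was at 10.1, 1.08 and 4.32 CPM in replicates 1, 2 and 3.

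The transcripts also differ at their 3′ ends, shown because 3 of the 13 genes stop within a codon. The last 27 bases follow, with the complete or partial stop codon in capitals.
mt-Co3: acgtctccatttattgatgaggatctT
mt-Nd4: caaaactaattacaggcctgacaataT
mt-Cytb: aagacaaaatactaaaattatatccaT
mt-Co1: gaaccaacctatgtaaaagtaaaaTAA
In mt-Co3, mt-Nd4 and mt-Cytb only the T is encoded, and the poly(A) tail is known to complete the codon, whereas mt-Co1 and the other 9 carry a full TAA or TAG.

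The mitochondrial share of counts was higher with KCl+BMS204352 than with KCl in both lines. In AT-3 the 3 KCl libraries held 0.580%, 0.491% and 0.572% of counts in the 13 mRNAs and the KCl+BMS204352 libraries 0.696%, 0.687% and 0.792%. In E0771 the share was 0.739%, 0.682% and 0.678% with KCl and 0.789%, 1.03% and 0.968% with KCl+BMS204352. The groups did not overlap in either line, and the ratio of geometric means was 1.32 in both AT-3 and E0771. Averaged over the lines the log2 difference was 0.40 (exact two-sided permutation test within lines, p = 0.005, the smallest that 400 permutations can give, adjusted p = 0.015 over 6 comparisons). Within one line 3 libraries against 3 cannot go below an exact p of 0.1. Without the 4 replicate 3 libraries named above the difference was 0.35 (exact p = 0.01, adjusted p = 0.03). With mt-Co1 left out of the sum the difference averaged over the lines was 0.27 (exact permutation, adjusted p = 0.03). That average did not rest on mt-Co1 alone, but in E0771 the groups overlapped once it was left out. With libraries paired by replicate number the difference of 0.40 had an exact permutation p of 0.0312, the smallest that pairing allows (adjusted p = 0.0938). An adjusted p below 0.05 would need most of the 6 comparisons at that floor, so the paired test cannot decide here. Same-numbered KCl and KCl+BMS204352 libraries deviated together in AT-3, with correlations over genes of 0.117 to 0.171, and less so in E0771, with 0.016 to 0.068.

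KCl+BMS204352 also exceeded KCl+NS11021, whose libraries held 0.549%, 0.595% and 0.551% in AT-3 and 0.750%, 0.725% and 0.725% in E0771. The groups again did not overlap, with a log2 difference of 0.35 (exact permutation p = 0.005, adjusted p = 0.015). Without the 4 libraries it was 0.30 (exact permutation, adjusted p = 0.03), and with libraries paired by number the adjusted p was again 0.0938. The other 4 comparisons did not pass. The log2 difference was 0.03 for KCl against DMSO, 0.01 for NS11021, 0.08 for BMS204352 and 0.06 for KCl+NS11021 against KCl, with adjusted p from 0.44 to 0.94 (exact permutation tests). DMSO libraries ranged from 0.520% to 0.570% in AT-3 and from 0.626% to 0.720% in E0771. The 3 E0771 libraries with BMS204352 alone spread from 0.522% in replicate 1 to 0.887% in replicate 3, the widest spread of the 12 groups. The value for BMS204352 alone rested on these libraries: it was 0.19 without E0771 replicate 1 (exact permutation p = 0.045, adjusted p = 0.09), -0.002 without E0771 replicate 3 and 0.01 without the 4 libraries.

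**Figure D2:**
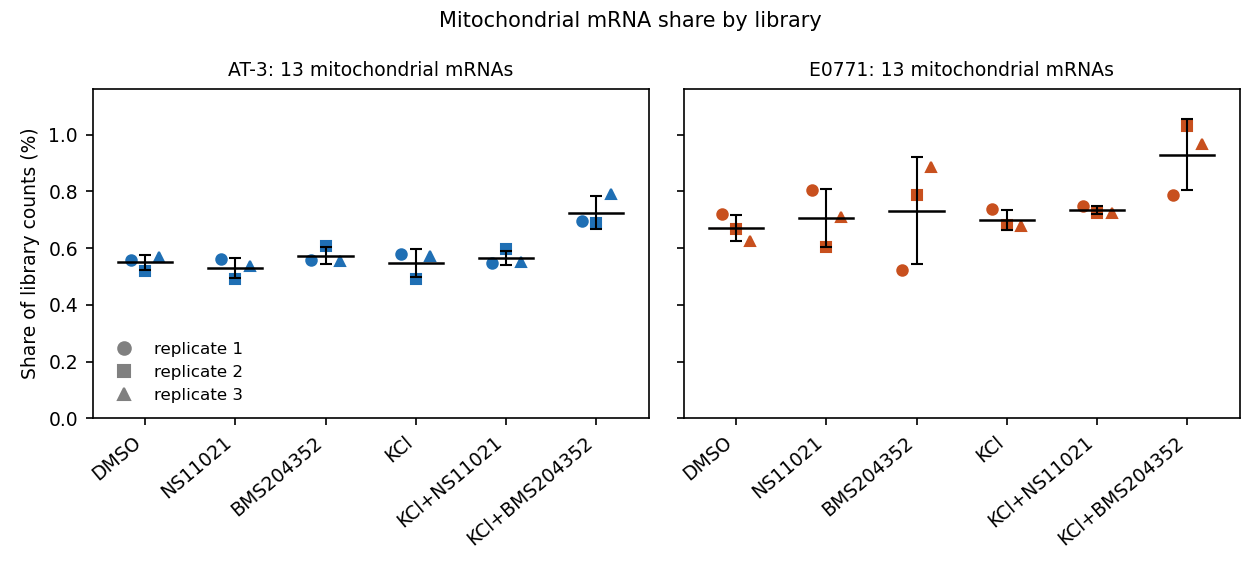
Share of library counts in the 13 mitochondrial mRNAs (percent) for each of 36 libraries, by treatment, AT-3 left and E0771 right; marker shape gives the replicate, the bar the mean and the whisker the SD of 3 libraries. The KCl+BMS204352 libraries lie at 0.687% or higher in AT-3 and 0.789% or higher in E0771, above every KCl library of their line.

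The shares of ribosomal protein and histone mRNAs did not overlap between these groups either. The mRNAs of cytosolic ribosomal proteins took 2.84% to 3.06% of AT-3 counts with KCl and 3.14% to 3.205% with KCl+BMS204352. In E0771 they took 3.31% to 3.33% and 3.59% to 3.675%. Histone mRNAs took 0.0101% to 0.0112% with KCl and 0.0094% to 0.0096% with KCl+BMS204352 in AT-3, and 0.0064% to 0.0066% and 0.0049% to 0.0059% in E0771. These classes were not tested as groups, and their part in the mitochondrial result was not tested. In bulk RNA, more mitochondrial transcript per cell, less of other RNA and a change in the mix of cells cannot be told apart.

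Gene by gene, 4 of the 13 mRNAs rose in AT-3 with KCl+BMS204352 against KCl and 0 fell, by edgeR's quasi-likelihood test at an adjusted p below 0.05 over all 14772 genes. Over those genes 0.731% were called higher and 0.508% lower. 11 of the 13 had a positive log2 fold change, the median was 0.37 against 0.00 over all genes tested, and the libraries of the groups did not overlap for 11, all higher with KCl+BMS204352, as for 13.1% of all genes. With replicate number in the model 6 rose, mt-Nd2 (edgeR adjusted p = 0.00793) and mt-Cytb (edgeR adjusted p = 0.034) in addition to the 4, 0 fell, and 2.21% of genes were called higher and 1.98% lower. In E0771 3 mRNAs rose and 0 fell, where 9.85% of 13357 genes were called higher and 10.1% lower, and 10 of the 13 were positive with a median of 0.34. For E0771 the share of all genes without overlap was not counted, here or against KCl+NS11021.

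Within complex IV, mt-Co1 rose in both lines. It stood at 1936, 1711 and 1877 CPM in the AT-3 KCl libraries of replicates 1, 2 and 3 and at 2449, 2426 and 2977 with KCl+BMS204352. All treated libraries lay above all KCl libraries, with a log2 fold change of 0.50 ± 0.08 (SE) and an edgeR adjusted p of 0.00275. In E0771 it went from 2419.9, 2171 and 2183 CPM to 3147, 4256 and 4329, again without overlap (0.78 ± 0.18, edgeR adjusted p = 0.0085). Both calls held under each of the 14 alternative fits, with adjusted p of at most 0.0305 in AT-3 and 0.0406 in E0771 (edgeR or DESeq2). mt-Co2, which carries the CuA centre of complex IV, stood at 50.7, 43.9 and 56.8 CPM in AT-3 with KCl and 64.1, 68.0 and 73.7 with KCl+BMS204352, at an edgeR adjusted p of 0.134. In E0771 its groups overlapped, at 39.7 to 43.1 and 41.2 to 54.8 CPM. mt-Co3, a further core subunit, had log2 fold changes of 0.19 in AT-3 and -0.07 in E0771 and passed in neither line.

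In complex I, mt-Nd5 and mt-Nd6 rose in both lines and mt-Nd4 in AT-3. mt-Nd5, a proton-pumping subunit, stood at 374, 333 and 361 CPM with KCl and 479.7, 444 and 495 with KCl+BMS204352 in AT-3 (log2 0.40 ± 0.07, edgeR adjusted p = 0.00676). In E0771 it stood at 785, 728 and 716 CPM and at 909, 1217 and 1242 (0.58 ± 0.19, edgeR adjusted p = 0.0463). mt-Nd6, a membrane subunit, stood at 98.4, 83.7 and 82.4 CPM and at 117, 104 and 119 in AT-3 (0.35 ± 0.08, edgeR adjusted p = 0.0339). In E0771 it stood at 205, 199 and 191 CPM and at 257, 346 and 330.2 (0.64 ± 0.17, edgeR adjusted p = 0.0213). In each of these sets the lowest library with KCl+BMS204352 exceeded the highest with KCl. As the strand used in counting is not known, the mt-Nd6 calls cannot be told apart from reads of a transcript opposite to it. Over the 18 libraries of a line, log2 CPM of mt-Nd5 and mt-Nd6 correlated at 0.929 in AT-3 and 0.981 in E0771. For mt-Co1 and mt-Nd6 the correlations were 0.839 and 0.952. mt-Nd4, also a proton pump, rose in AT-3 from 289, 244 and 269 to 331, 360.0 and 391 CPM (0.42 ± 0.09, edgeR adjusted p = 0.0222). In E0771 it was at 437, 396 and 382 and at 480.3, 656 and 617 CPM, without overlap, and did not pass (0.52 ± 0.19, edgeR adjusted p = 0.0711). mt-Nd4l, a small membrane subunit that overlaps mt-Nd4 by 7 bases, was also higher without overlap in both lines and did not pass, with an edgeR adjusted p of 0.159 in AT-3 and 0.0504 in E0771.

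These calls were less firm than those of mt-Co1. The AT-3 call of mt-Nd5 was lost without KCl replicate 2 or KCl+BMS204352 replicate 3, with adjusted p from 2.56e-05 to 0.0698 over 14 edgeR or DESeq2 fits. That of mt-Nd4 was lost in 5 fits, namely without KCl replicate 2 or 3, without KCl+BMS204352 replicate 2 or 3, and without the 4 libraries that stood apart (edgeR or DESeq2 adjusted p up to 0.189). That of mt-Nd6 was lost in 6 fits, without KCl replicate 2 or 3, KCl+BMS204352 replicate 1 or 3, the 4 libraries, or any library outside the comparison (up to 0.213). In E0771 the mt-Nd5 call was lost in 8 fits (adjusted p 0.0117 to 0.155, edgeR or DESeq2), among them those without each KCl library and without KCl+BMS204352 replicate 2 or 3. The mt-Nd6 call was lost in 5 fits, those without each KCl library and without KCl+BMS204352 replicate 2 or 3 (0.00189 to 0.078, edgeR or DESeq2). Without the 4 libraries 2 members rose in AT-3 and 3 in E0771, where 1.08% and 8.78% of genes were called higher.

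mt-Nd1, mt-Nd2, mt-Nd3 and mt-Cytb passed in neither line in the main edgeR fit, which has no replicate number in the model. mt-Nd1 stood at 1275, 992 and 1303 CPM with KCl and 1441, 1380.5 and 1544 with KCl+BMS204352 in AT-3, without overlap (0.28 ± 0.10, edgeR adjusted p = 0.189). In E0771 it stood at 1037, 964 and 982 CPM and at 843, 994 and 839, with overlap (-0.17). mt-Cytb stood at 1114, 926 and 1088 CPM and at 1263, 1311 and 1379.6 in AT-3, without overlap, and fell just short of the threshold (0.33 ± 0.08, edgeR adjusted p = 0.0509). In E0771 it stood at 1096, 1003 and 1032 CPM and at 966, 1178 and 943 (-0.03). mt-Nd2, a proton-pumping subunit, was at 415 to 534 CPM and 599 to 740.5 in AT-3 (0.41, edgeR adjusted p = 0.0606), and overlapped in E0771 (0.07). mt-Nd3, a small subunit, overlapped in both lines. In complex V, mt-Atp6, the proton-channel subunit a, was at 61.1 to 65.1 CPM and 75.5 to 93.6 in AT-3 (0.44, edgeR adjusted p = 0.183) and overlapped in E0771 (0.34). mt-Atp8, a small accessory subunit, ran from 1.05 to 6.66 CPM with KCl in AT-3 and from 0.617 to 6.60 with KCl+BMS204352 in E0771 and gave no call.

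**Figure D3:**
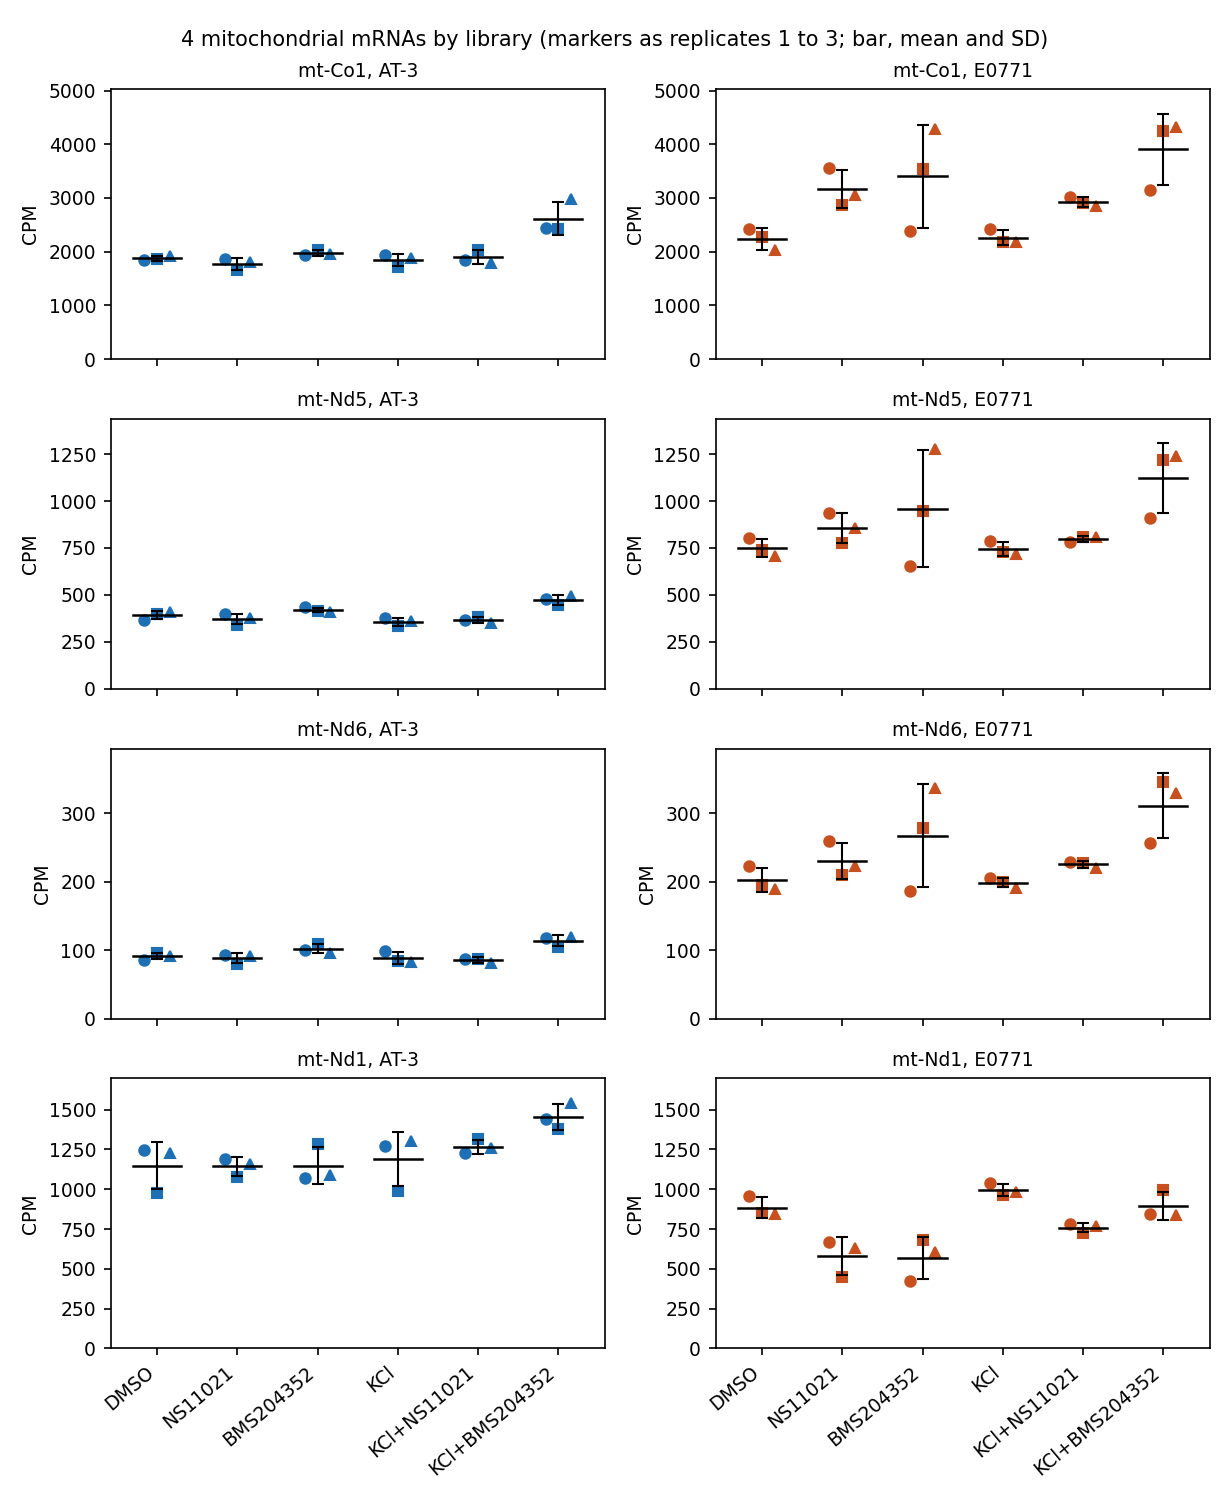
CPM of mt-Co1, mt-Nd5, mt-Nd6 and mt-Nd1 in each library by treatment, AT-3 left and E0771 right; circles, squares and triangles are replicates 1, 2 and 3, bars and whiskers the mean and SD of 3 libraries. mt-Co1, mt-Nd5 and mt-Nd6 are higher with KCl+BMS204352 than with KCl in every library of both lines, while mt-Nd1 in E0771 is not and lies lowest with either compound alone.

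The test of the difference between the lines in this effect called 0 of the 13 (1.42% of 15969 genes were called with a larger effect in E0771 and 1.95% with a smaller one). At an unadjusted p below 0.05 there was 1, mt-Nd1 (-0.45 ± 0.20, edgeR adjusted p = 0.232), as for 9.08% of genes with a smaller effect, and DESeq2 called 0. The interaction of KCl and BMS204352, which asks whether the compound acted differently with KCl than without it, called 0 members in AT-3, where 0% of genes were called in either direction. In AT-3 8 members had an unadjusted edgeR p below 0.05, all of them positive, as for 1.96% of genes, and DESeq2 called 0. In E0771 the interaction called 0 members as well, with 0.569% of genes called higher and 1.06% lower. There 2 had an unadjusted edgeR p below 0.05, mt-Nd3 and mt-Cytb, both positive, as for 6.24% of genes, and DESeq2 called 0.

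Against KCl+NS11021, which shares its KCl and differs in the compound, KCl+BMS204352 raised 5 members in AT-3 and lowered 0, where 0.196% of genes were called higher and 0.257% lower. The 5 were mt-Co1 (0.45 ± 0.08), mt-Nd4l (0.61 ± 0.13), mt-Nd4 (0.41 ± 0.09), mt-Nd5 (0.36 ± 0.07) and mt-Nd6 (0.40 ± 0.08), with edgeR adjusted p between 0.0105 and 0.0412. mt-Nd4l stood at 5.71, 5.98 and 5.65 CPM with KCl+NS11021 and 9.71, 7.90 and 9.13 with KCl+BMS204352, and 11 members did not overlap, all higher with KCl+BMS204352, as for 12% of all genes. The AT-3 calls rested on few libraries: leaving out any of the 6 compared libraries left between 0 and 3 calls, and without the 4 libraries that stood apart there were 3, all higher, against 0.326% of genes called higher. In E0771 only mt-Nd4l was called higher (0.64 ± 0.18, edgeR adjusted p = 0.0457) and 0 were called lower, where 1.03% of genes were called higher and 3.92% lower. It stood at 8.17, 10.2 and 8.09 CPM and at 10.5, 17.4 and 13.6, without overlap, and the call was lost in 6 of 14 fits. These were the fits without KCl+NS11021 replicate 1 or 3, without KCl+BMS204352 replicate 2 or 3, without the 4 libraries, and with replicate number in the model (adjusted p up to 0.222, edgeR or DESeq2). Both comparisons share the KCl+BMS204352 libraries with the one above. Of the windows of mt-Nd4l, 98.7% are shared with a nuclear copy.

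**Figure D4:**
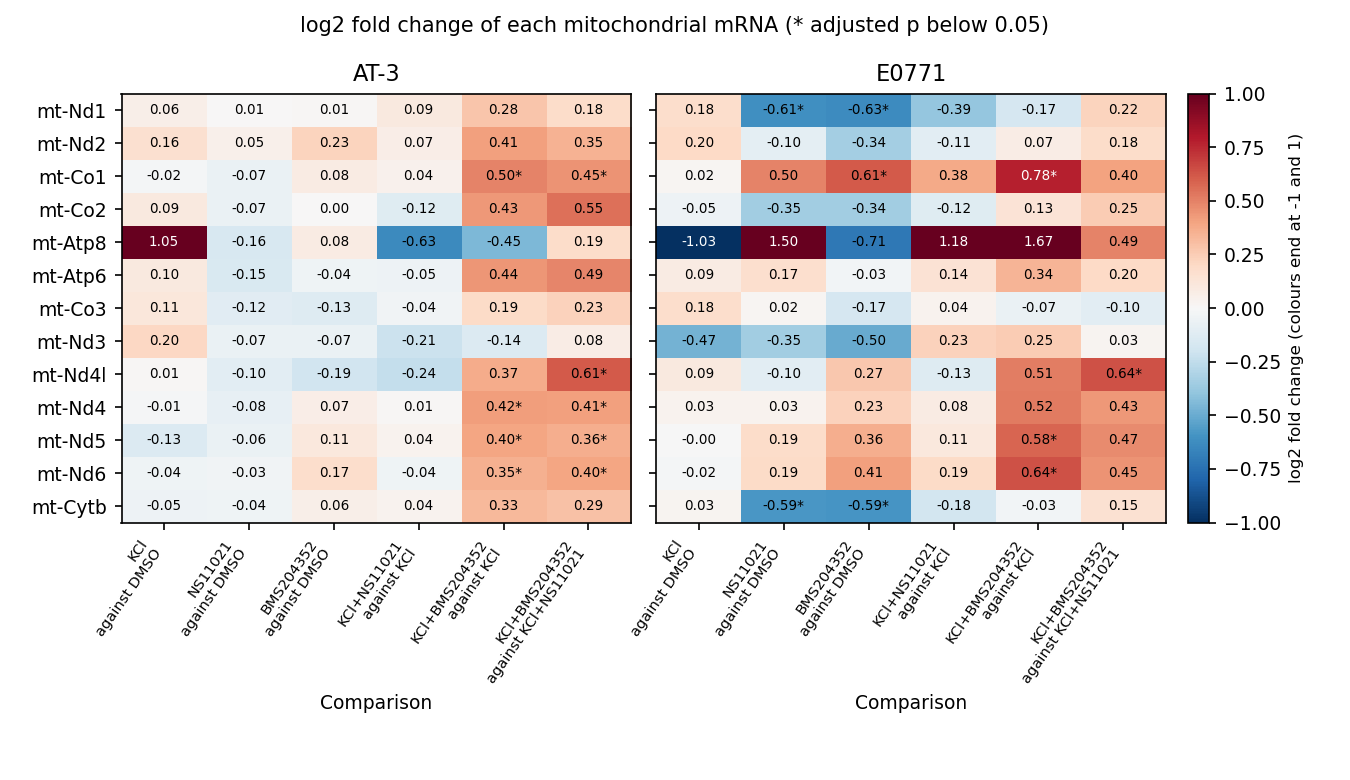
log2 fold change of each of the 13 mitochondrial mRNAs (rows, chromosome order) in 6 comparisons (columns) in AT-3 and E0771, from red for higher to blue for lower; an asterisk marks an edgeR adjusted p below 0.05. The KCl+BMS204352 columns are positive for most genes, and the asterisks for lower values are mt-Nd1 and mt-Cytb in E0771 with either compound alone.

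Either compound without KCl lowered mt-Nd1 and mt-Cytb in E0771. mt-Nd1 stood at 960.2, 849 and 846 CPM in DMSO, at 666, 446 and 628 with NS11021 and at 423, 680.1 and 607 with BMS204352. Every treated library was below every DMSO library, with log2 fold changes of -0.61 ± 0.16 (edgeR adjusted p = 0.0147) and -0.63 ± 0.16 (edgeR adjusted p = 0.0147). mt-Cytb stood at 1085, 1054 and 959 CPM in DMSO, at 785, 552 and 732 with NS11021 and at 508, 773 and 773 with BMS204352. These groups did not overlap either, and the changes were -0.59 ± 0.16 (edgeR adjusted p = 0.0153) and -0.59 ± 0.16 (edgeR adjusted p = 0.0172). The 2 comparisons share the DMSO libraries. mt-Nd2, mt-Co2, mt-Atp8 and mt-Nd3 were also lower without overlap with BMS204352 and were not called. The share of all genes without overlap was not counted for either compound alone, so the lack of overlap has no background here. For KCl against DMSO in this line it was 24% higher and 26.7% lower. That comparison called more genes, 4860 against 3515 with NS11021 and 3028 with BMS204352. With NS11021 0 members were higher and 2 lower, where 12.8% of genes were called higher and 13.5% lower. With BMS204352 1 was higher and 2 lower, against 11.3% of genes in each direction. The number of members called was thus near the background in both comparisons.

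The member called higher with BMS204352 was mt-Co1, at 2423, 2269 and 2024 CPM in DMSO and 2386, 3534 and 4291 with BMS204352, with overlap through replicate 1 (0.61 ± 0.18, edgeR adjusted p = 0.0277). This call was lost in 7 of 14 fits, among them those without the 4 libraries, without each DMSO library and without BMS204352 replicate 2 or 3 (adjusted p up to 0.192, edgeR or DESeq2). With NS11021 mt-Co1 was at 3560.4, 2868 and 3057 CPM, above every DMSO library, and did not pass (0.50 ± 0.18, edgeR adjusted p = 0.0595). The calls of mt-Nd1 and mt-Cytb were lost without DMSO replicate 1 under either compound, and without NS11021 replicate 2 under that compound. With only the compared libraries fitted, mt-Nd1 was lost under both compounds and mt-Cytb under BMS204352. The largest adjusted p over 14 edgeR or DESeq2 fits was 0.0632 for mt-Nd1 and 0.0716 for mt-Cytb with NS11021, and 0.11 and 0.119 with BMS204352. Without the 4 libraries, 2 members were lower and 0 higher with BMS204352, against 9.57% of genes lower and 9.47% higher.

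Within a library, a ratio of counts of 2 mitochondrial mRNAs is free of the library total. In E0771 the ratio of mt-Nd1 to mt-Co1 counts was 0.374 to 0.418 in DMSO and 0.429 to 0.450 in KCl. It was 0.155 to 0.205 with NS11021, 0.141 to 0.192 with BMS204352, 0.251 to 0.269 with KCl+NS11021 and 0.194 to 0.268 with KCl+BMS204352. Every library with a compound was below every library without one. In AT-3 the ratio stayed between 0.519 and 0.704 over all 18 libraries, with KCl+BMS204352 at 0.519 to 0.588. The ratio of mt-Cytb to mt-Co1 took the same course in E0771, at 0.448 to 0.474 in DMSO, 0.453 to 0.473 in KCl, 0.192 to 0.239 with NS11021 and 0.180 to 0.219 with BMS204352. With KCl it was 0.307 to 0.328 beside NS11021 and 0.218 to 0.307 beside BMS204352. mt-Nd5 to mt-Co1 was 0.327 to 0.349 in E0771 DMSO libraries and 0.263 to 0.297 in the 6 libraries with a compound alone, a smaller gap. These ratios were chosen after their values were seen and are given without a test. A ratio shows unequal levels, not which mRNA changed.

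**Figure D5:**
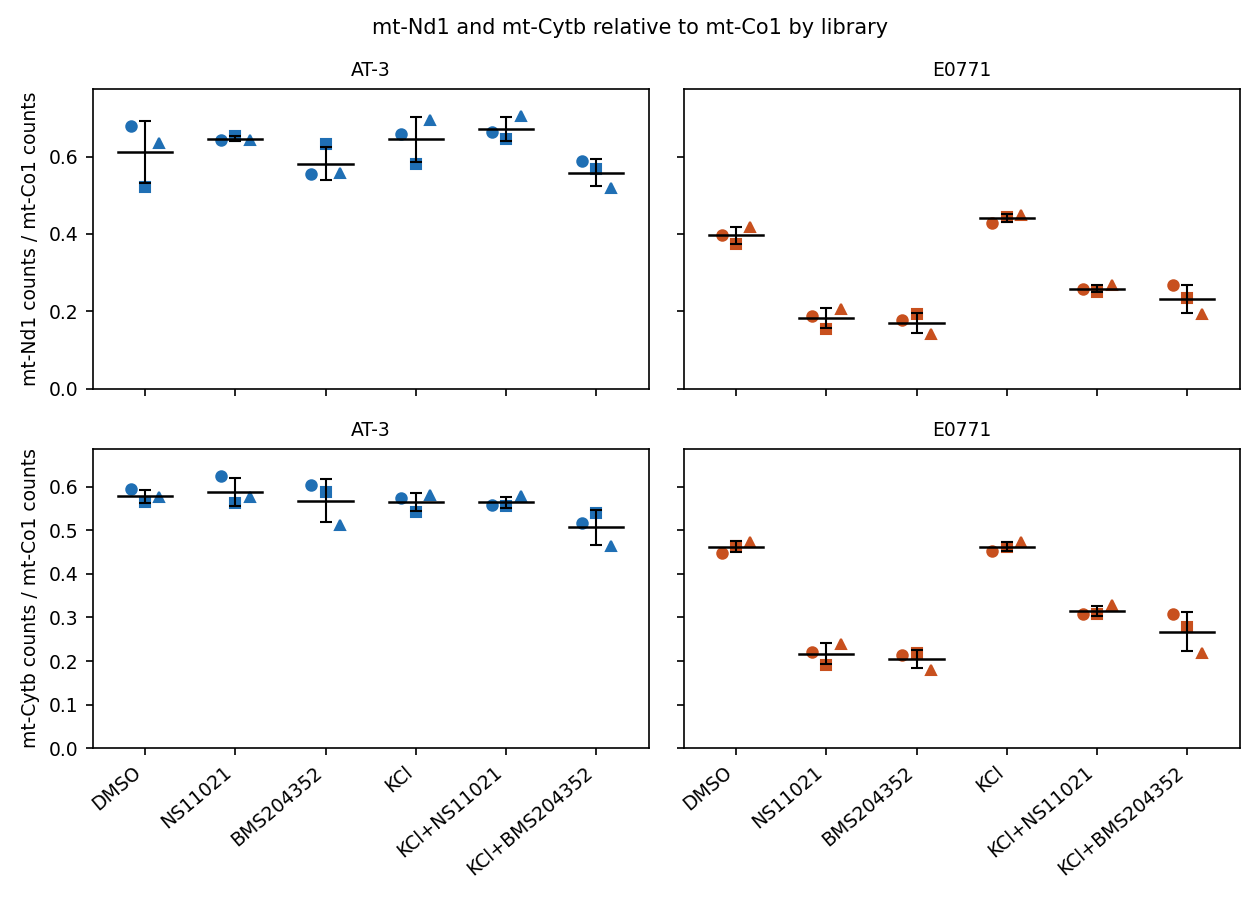
Counts of mt-Nd1 (top) and mt-Cytb (bottom) divided by counts of mt-Co1 in each library by treatment, AT-3 left and E0771 right; marker shapes are replicates, bars and whiskers the mean and SD of 3 libraries. In E0771 the libraries with NS11021 or BMS204352 all lie below 0.27 for mt-Nd1, and those without a compound at 0.374 or higher, while AT-3 stays at 0.519 or higher.

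The differences between the lines in these effects were tested in comparisons added after seeing the data. For BMS204352 against DMSO, mt-Cytb was called with a lower effect in E0771 (-0.65 ± 0.18, edgeR adjusted p = 0.0291), while 1.89% of genes were called with a larger effect and 3.12% with a smaller one. The call was lost in 10 of 20 fits (adjusted p 0.00313 to 0.115, edgeR or DESeq2), among them those without each AT-3 DMSO library, without E0771 DMSO replicate 1 or 2, without AT-3 BMS204352 replicate 1 or 2, and without E0771 BMS204352 replicate 1. mt-Nd1 missed the threshold (-0.65 ± 0.20, edgeR adjusted p = 0.0554). For NS11021 against DMSO 0 members passed, where 1.49% of genes were called larger and 2.5% smaller. There mt-Nd1 (-0.63), mt-Cytb (-0.55) and mt-Co1 (0.56) had an unadjusted p below 0.05, with edgeR adjusted p from 0.0718 to 0.112, and DESeq2 called 3. At that unadjusted p stood 7.41% of genes with a larger effect and 10.3% with a smaller one.

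In AT-3 neither compound alone, nor KCl, changed a member past the threshold. For KCl against DMSO 0 members were called (3.08% of genes higher and 1.75% lower), 0 had an unadjusted edgeR p below 0.05, and DESeq2 called 0. For NS11021 0 were called (0.0677% higher, 0.00677% lower), 0 had an unadjusted edgeR p below 0.05, and DESeq2 called 0. For BMS204352 0 were called (3.28% higher, 2% lower) and DESeq2 called 0, while 2, mt-Nd2 (0.23) and mt-Nd6 (0.17), had an unadjusted edgeR p below 0.05, as did 11.8% of genes in that direction. For KCl+NS11021 against KCl 0 were called (0.0203% higher, 0% lower), 0 had an unadjusted edgeR p below 0.05, and DESeq2 called 0. The level of mt-Co1 over the AT-3 libraries without KCl+BMS204352 ran from 1652 to 2038 CPM.

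In E0771 KCl against DMSO called 0 members by edgeR and by DESeq2, and 0 had an unadjusted edgeR p below 0.05, although 17.8% of all genes were called higher and 18.6% lower. mt-Nd1, mt-Nd2 and mt-Co3 were higher without overlap and mt-Atp8 and mt-Nd3 lower without overlap, against 24% and 26.7% of all genes, and none passed. mt-Nd3, for example, stood at 12.7, 13.1 and 15.7 CPM in DMSO and 8.28, 11.2 and 10.2 with KCl (-0.47). With only the 6 compared libraries fitted, 5 members passed, 3 higher and 2 lower, where 22.3% of genes were called higher and 22.9% lower. For KCl+NS11021 against KCl 0 were called by edgeR and by DESeq2, against 9.59% of genes higher and 7.66% lower. mt-Nd1 stood at 779, 727 and 766 CPM with KCl+NS11021, below all KCl libraries, and alone had an unadjusted edgeR p below 0.05 (-0.39 ± 0.16, adjusted p = 0.128), as did 13.8% of genes in that direction. With only the 6 compared libraries fitted, 6 members passed here, 3 higher and 3 lower, where 13.7% of genes were called higher and 13.5% lower.

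The lines differed at baseline. In DMSO 5 members were higher and 2 lower in E0771 than in AT-3, where 34.1% of 15969 genes were called higher and 40.4% lower, so the members' share was near that of all genes. mt-Nd2 stood at 471, 381 and 462 CPM in AT-3 and 1089.8, 987 and 987 in E0771, at a log2 difference of 1.22 ± 0.15 (edgeR adjusted p = 4.35e-08). mt-Nd6 stood at 85.9, 95.6 and 92.1 CPM in AT-3 and 223, 195 and 189 in E0771 (1.15 ± 0.14, edgeR adjusted p = 1.73e-08). mt-Nd5 stood at 368, 399.7 and 410.1 CPM and at 804, 741 and 706 (0.93 ± 0.14, edgeR adjusted p = 1.52e-06). In all of these the E0771 libraries lay above the AT-3 libraries with no overlap, and the share of all genes without overlap was not counted. mt-Nd4 (0.56, edgeR adjusted p = 0.00133) and mt-Nd4l (0.42, edgeR adjusted p = 0.0252) were also higher in E0771. mt-Nd1 (-0.38, edgeR adjusted p = 0.0169) and mt-Atp6 (-0.47, edgeR adjusted p = 0.0281) were lower. All higher members belong to complex I. The calls of mt-Nd2, mt-Nd4, mt-Nd5 and mt-Nd6 held under each of 14 fits. Those of mt-Nd1 and mt-Atp6 were both lost without AT-3 DMSO replicate 1 or 3, mt-Atp6 also without E0771 DMSO replicate 2 or 3 (adjusted p up to 0.0716 and 0.147, edgeR or DESeq2). That of mt-Nd4l was lost in 5 fits, without AT-3 DMSO replicate 2 or 3, without E0771 DMSO replicate 1 or 3, and with replicate number in the model (up to 0.114). Over all groups mt-Nd5 ran from 333 to 495 CPM in AT-3 and from 652 to 1276 in E0771, so no AT-3 library reached the lowest E0771 library.

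Nuclear genes that make, process and use the mitochondrial transcripts were counted in KCl+BMS204352 against KCl, over all genes tested by edgeR. In AT-3 none of the 11 genes of mitochondrial transcription, 25 of RNA processing, 18 of polyadenylation and decay, 19 of DNA maintenance, 13 biogenesis regulators, 11 mitophagy genes or 32 mitochondrial ribosomal proteins passed in either direction. Of 48 nuclear subunits of complexes I to V, 2 rose and 0 fell, Cox4i1 of complex IV (0.27 ± 0.05, edgeR adjusted p = 0.0214) and Uqcrq of complex III (0.30 ± 0.06, edgeR adjusted p = 0.0222). Their median log2 fold change was 0.07, against 0.37 for the 13 mitochondrial mRNAs. Of 17 mitochondrial stress genes 1 rose, Atf5 (1.11 ± 0.23, edgeR adjusted p = 0.0404), a transcription factor of the mitochondrial unfolded protein response.

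In E0771 more of these genes moved, as did more genes overall. Of 11 transcription genes, Tfb1m, which methylates the small rRNA, rose (0.40 ± 0.11) and Polrmt, the polymerase, fell (-0.145 ± 0.05, edgeR adjusted p = 0.0438). Of 25 RNA processing genes 6 rose and 0 fell, among them the pseudouridine synthases Trub2 (0.40 ± 0.08) and Rpusd3 (0.60 ± 0.12), the tRNA modifier Cdk5rap1 (0.58 ± 0.14) and Elac2, which cuts tRNA 3′ ends (0.20 ± 0.06). Of 19 genes of polyadenylation, stability and decay 3 rose and 0 fell: Fastkd1 (0.57 ± 0.10), Lrpprc, which stabilises mitochondrial mRNAs (0.29 ± 0.06), and Fastk, which is needed for mt-Nd6 mRNA (0.25 ± 0.07). Of 19 DNA maintenance genes 4 rose and 1 fell, with the topoisomerase Top1mt (0.41 ± 0.09), the thymidine kinase Tk2 (0.38 ± 0.09), the ribonucleotide reductase subunit Rrm2b (0.41 ± 0.11) and Suclg1 among those higher. Of 32 mitochondrial ribosomal proteins 7 rose and 0 fell, led by Mrps10 (0.43 ± 0.07, edgeR adjusted p = 4.73e-05), Mrpl44 (0.38), Mrpl17 (0.25) and Mrpl23 (0.30).

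Of 48 nuclear subunits only Ndufs1 of complex I (0.16 ± 0.05) and Sdhc of complex II (0.18 ± 0.06) rose in E0771 and 0 fell, with a median of 0.01. Of 17 stress genes 4 rose and 0 fell, the chaperones Hspe1 (0.21 ± 0.04), Hspa9 (edgeR adjusted p = 0.0357) and Hspd1 (0.10 ± 0.04) and the factor Atf5 (0.75 ± 0.20, edgeR adjusted p = 0.017). Of 11 biogenesis regulators Myc rose (0.24 ± 0.07) and Yy1 fell (-0.21 ± 0.05). Of 11 mitophagy genes 0 rose and 3 fell, the receptors Bnip3 (-0.32 ± 0.09) and Bnip3l (-0.25 ± 0.07) and the autophagosome protein gene Map1lc3b (-0.16 ± 0.05). Against 9.85% of genes called higher and 10.1% lower, these are counts only, and no list was tested as a set. Of the cell type markers, the collagen gene Col3a1 fell in AT-3 (-1.02, edgeR adjusted p = 0.0339), and Cd68, a lysosomal protein gene of macrophages, rose in E0771 (0.69, edgeR adjusted p = 0.000532), as did Pdgfra (0.16, edgeR adjusted p = 0.0306). No other marker was called. Of nuclear-retained RNAs 0 of 6 passed in AT-3 and 1 of 5 in E0771, Gas5 (0.42 ± 0.09, edgeR adjusted p = 0.00439).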

How the data were processed

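RNA from 36 libraries of AT-3 and E0771 cells, 3 in each of 12 groups, was prepared with Qiagen RNeasy and the NuGen Universal Plus mRNA kit, per the labels' protocols. The deposited table holds raw counts per gene; the authors aligned to GRCm38 with STAR and counted with featureCounts, per the submitters' processing notes. For versions, strand and multiply matching reads, the setting is not given in the sources used here. Of 32287 gene IDs, 2 of human form with 6 counts were left out. Symbols came from GENCODE vM21, and 50 IDs without one held 0.0009% of counts. Among counts from 1 to 10, 84.5% were even, so tests were repeated on halved counts. All 36 columns were matched by title. No pair of replicates agreed within sampling noise.

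Members, gene lists and tests were chosen with earlier results of these data known. CPM, shares, fold changes and tests were computed here with R 4.3.3, edgeR 4.0.16 and DESeq2 1.42.0. Genes passed filterByExpr (minimum count 10, minimum total 15), which all 13 members did in each fit, and edgeR's quasi-likelihood test (TMM factors, robust) was run per line on 18 libraries, or on all 36 for differences between lines. AT-3 had a common dispersion of 0.0136, E0771 of 0.005. P-values were adjusted by Benjamini-Hochberg over all genes of a comparison. The mitochondrial share was compared on the log2 scale by an exact permutation test within lines. The tests were checked on simulated data. SE is from the fit, SD is over 3 libraries. Transcripts were searched for windows of 75 bases shared with other annotated transcripts. Every member is described; other genes are list members past the threshold in KCl+BMS204352 against KCl in either line, up to 4 per list by smallest adjusted p, and epithelial and other markers that check the lines' labels, picked after their values were seen. Numbers were taken to pair 2 groups where all 3 same-numbered libraries correlated above 0.1 in their deviations from the group means, which held for 4 of 6 comparisons in AT-3 and 0 of 6 in E0771; the labels name nothing that a number stands for.

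Alternatives were DESeq2's Wald test, its size factors in edgeR, a filter of 1 CPM in 3 libraries or none, a replicate block, halved counts, only the libraries compared, omission of the 4 BMS204352 libraries of replicate 3, and each library left out in turn. Sums without mt-Co1 or without the 5 members with at least 90% of windows shared, and the differences between lines for each compound alone, were added after seeing the data.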

Additional observations from a re-analysis of the deposited data

Results flagged for a closer look

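The change of mt-Cytb with BMS204352 against DMSO differed between the lines in a test of that difference, with a log2 difference of -0.65 for E0771 minus AT-3 (edgeR adjusted p = 0.0291 over 15969 genes). The log2 fold change of mt-Cytb was 0.06 in AT-3 and -0.59 in E0771, where 3 of 3 libraries lay below the DMSO libraries. The comparison was added after seeing the data, and the call was lost in 10 of 20 alternative fits.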

How the results depend on the processing

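Over 370 alternative fits of the 26 calls of a member, 97 lost the call and 0 changed direction. The calls kept in every fit run were mt-Co1 with KCl+BMS204352 against KCl in both lines, and mt-Nd2, mt-Nd4, mt-Nd5 and mt-Nd6 between the lines in DMSO, 6 in all. The cause of the other changes was not tested. With no filter, E0771 KCl against DMSO called 1 member in place of 0, and the line difference for BMS204352 called 0 in place of 1. With a filter of 1 CPM that line difference called 2. With only the compared libraries, calls came to 8 for AT-3 KCl+BMS204352 against KCl+NS11021, 5 for E0771 KCl against DMSO, 1 for E0771 BMS204352 against DMSO, 6 for E0771 KCl+NS11021 against KCl, and 1 and 0 for the line differences of NS11021 and BMS204352. With DESeq2's Wald test, KCl+BMS204352 against KCl gave 7 calls in AT-3 and 5 in E0771, and the line differences of NS11021 and BMS204352 gave 3 and 2. Without the 4 BMS204352 libraries of replicate 3, calls were 2 and 3 for AT-3 KCl+BMS204352 against KCl and KCl+NS11021, 0 for E0771 against KCl+NS11021, and 1 for the line difference of NS11021.

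Leaving out each library in turn gave 1 to 4 calls for AT-3 KCl+BMS204352 against KCl, 0 to 3 against KCl+NS11021, 1 to 5 and 0 to 1 for the same in E0771, 0 to 2 for E0771 NS11021, 0 to 5 for E0771 BMS204352, 4 to 7 for E0771 against AT-3, and 0 to 2 for the line difference of BMS204352. The share difference for KCl+BMS204352 stayed between 0.363 and 0.460 against KCl and between 0.306 and 0.402 against KCl+NS11021.

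Of 45 pairs of same-numbered libraries per line, 33 in AT-3 and 14 in E0771 correlated above 0.1, and 17 and 13 of 18 libraries correlated best with their own number, a hint from the data. With a replicate block, E0771 KCl+BMS204352 against KCl+NS11021 called 0 members, and the share differences of 0.403 and 0.345 had an exact permutation p of 0.0312 (adjusted 0.0938), the smallest that design allows.

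Sums over the rRNAs or with nuclear copies were not run. mt-Atp8, at 23 to 365 counts per library, is limited by depth and spread. Counting error is smaller for the other members, though mt-Nd4l and mt-Nd3 had as few as 223 and 257 counts in a library.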
